A study of Rattus norvegicus with 12 samples.

Results

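Collagen genes of the rat dorsal root ganglion were followed across vehicle, paclitaxel and oxaliplatin groups. A gene counted as a collagen when its symbol in the 12 per-library gene tables read Col, a number, the letter a and a number, which leaves out genes such as Colq and the collectins. The rule found 44 of the 20152 genes listed in any library, and all 44 were listed in all 12 libraries. By known structure, 11 were fibrillar (Col1a1, Col1a2, Col2a1, Col3a1, Col5a1, Col5a2, Col5a3, Col11a1, Col11a2, Col24a1 and Col27a1) and 8 belonged to basement membranes (Col4a1 to Col4a6, Col15a1 and Col18a1). The other 25 were 9 fibril-associated chains with interrupted helices (FACIT), 6 of the type VI family, 3 short-chain, 4 transmembrane and 3 anchoring or remaining chains. The default expression filter of edgeR, which drops genes with few counts, passed 43 of them and set aside Col6a4.

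Dorsal root ganglia hold the cell bodies of sensory neurons together with satellite glia, Schwann cells, vessels and a connective tissue capsule. Total RNA from flash-frozen rat ganglia gave 12 libraries, 4 from each of vehicle, paclitaxel and oxaliplatin rats. Paclitaxel, which stabilises microtubules, was given at 2.0 mg/kg from a DMSO stock diluted in saline, and oxaliplatin, a platinum compound, at 2.4 mg/kg in glucose solution, both into the peritoneum to induce neuropathic pain. What the vehicle contained, how many injections were given, the day of sampling and the rats' strain, sex and age are not given in the sources used here, so a drug and its solvent cannot be told apart. Nothing says that the libraries of a group came from separate rats, and the p-values therefore speak only of variation from library to library, which may be technical.

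Collagens are secreted proteins whose alpha chains wind around each other into a stiff helix. Fibrillar collagens assemble into the cables of the endoneurium, perineurium and capsule, while type IV collagen forms the sheet-like network of basement membranes that surrounds Schwann cells, satellite glia and capillaries. Type VI collagen forms beaded filaments between the fibrils and the cells, and FACIT collagens sit on the surface of fibrils. In nerve tissue, fibroblasts make most of the fibrillar collagen, and Schwann cells and vascular cells make basement membrane chains.

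The promoter stretches below are shown because they belong to chains that are made as partners or that passed a test in these libraries. RefSeq windows on GRCr8, from 250 bases before to 50 bases after a gene's start, were found for 35 of the 44 genes, among them 12 of the 18 genes called between the drugs. The build behind the expression values is not known, so these coordinates belong to the reference alone. Capitals mark a match, on either strand, to the CCAAT box, to the TATA motif written TATAAA, or to the GC box written GGGCGG. The 1st is the whole stretch of 76 bases between the divergent starts of Col4a2 and Col4a1, the 2nd lies from 250 to 131 bases before the start of Col1a2, and the others are the last 150 bases before the starts of Col5a1 and Col6a1. All are written along the plus strand.
Col4a2 to Col4a1, chr16:84885521-84885596: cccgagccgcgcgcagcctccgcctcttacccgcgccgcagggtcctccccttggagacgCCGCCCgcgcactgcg
Col1a2, chr4:33518307-33518426: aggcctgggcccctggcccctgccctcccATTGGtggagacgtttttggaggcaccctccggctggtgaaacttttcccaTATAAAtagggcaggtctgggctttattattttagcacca
Col5a1, chr3:31606730-31606879: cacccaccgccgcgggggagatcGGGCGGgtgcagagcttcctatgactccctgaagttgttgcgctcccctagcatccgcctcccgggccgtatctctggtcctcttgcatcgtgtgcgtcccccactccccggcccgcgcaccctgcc
Col6a1, chr20:11905540-11905689: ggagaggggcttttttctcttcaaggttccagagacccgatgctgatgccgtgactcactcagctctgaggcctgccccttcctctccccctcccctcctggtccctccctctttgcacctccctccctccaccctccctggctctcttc

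The Col1a2 stretch held both a CCAAT match, read as ATTGG on this strand, and TATAAA. The Col4a stretch held only a GGGCGG match, read as CCGCCC. The printed stretch of Col6a1 held none of the 3 motifs. The stretches differ in length and in distance from the start, so their matches cannot be set against each other. Over the 300-base windows, GGGCGG occurred in 19 of 35 collagen genes (54.3%) against 33.1% of all 33469 windows. CCAAT occurred in 31.4% of collagen genes and 37.5% of windows, and TATAAA in 11.4% and 14.2%. A collagen gene counted once if any window of it held the motif, while all windows counted singly. The shares of genes and of windows are therefore not like for like. Of the 12 genes called between the drugs that had a window, 7 held GGGCGG, 2 CCAAT and 2 TATAAA. These matches describe letters only. The starts of Col4a4 and Col4a3 lay 412 bases apart and those of Col4a6 and Col4a5 1414, so each type IV pair is read outward from a shared stretch.

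Estimated counts per library summed to between 17008728 and 17615736, and 17987 to 18215 genes were listed in each. Collagen genes took 0.397% to 0.547% of the estimated counts in vehicle, 0.368% to 0.429% in paclitaxel and 0.57% to 0.67% in oxaliplatin. Libraries of a group were not alike for these genes. The library vehicle 4 was the lowest of its group for 31 of 44 collagens, paclitaxel 4 was the highest of its group for 25 and paclitaxel 3 the lowest for 20. Neuron markers summed to between 11839 and 22036 CPM (counts scaled to library size with edgeR's TMM factors) and Schwann cell and myelin markers to between 13728 and 26886, so the defining cells of the ganglion were represented in every library. The counts of 7 collagens were not whole numbers in more than 6 libraries, which means that reads were divided with other genes, and they are uncertain: Col1a2, Col11a2, Col4a3, Col6a5, Col6a6, Col15a1 and Col23a1.

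In vehicle ganglia, 2 fibrillar chains stood above all other collagens on the per-length FPKM scale (fragments scaled to transcript length and library size). Col3a1, the chain of type III collagen, was listed at 210.2 ± 33.0 FPKM (SD, n = 4) and Col1a1, the main chain of type I, at 165 ± 28.4, with overlapping libraries. Col5a3 followed at 84.3 ± 14.2 FPKM. It encodes a type V chain that Schwann cells are known to make, and its libraries overlapped neither neighbour in the order. Together these 3 genes held 48.7% to 53.2% of the summed collagen FPKM of a vehicle library. Col6a2 at 44.7 ± 7.0 FPKM came next, with Col4a1 at 42.8 ± 6.88, Col6a1 at 30.9 ± 5.99, Col16a1 at 30.4 ± 5.07 and Col4a2 at 28.9 ± 3.52.

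Below these, each member overlapped the next in the order down to Col10a1, so no order is claimed among them. Col28a1, a chain known from peripheral nerve, was at 28.3 ± 4.40 FPKM, Col9a3 at 27.8 ± 4.84, Col1a2 at 27.6 ± 5.14 and the type V chains Col5a1 and Col5a2 at 25.5 ± 3.60 and 24.0 ± 3.91. In all, 36 of 44 members averaged at least 1 FPKM, 17 at least 10 and 2 at least 100. The 8 members under 1 FPKM were Col20a1, Col4a3, Col4a4, Col10a1, Col7a1, Col6a4, Col4a6 and Col17a1. Col4a3 and Col4a4 are known from kidney glomeruli, Col10a1 from cartilage, and Col7a1 and Col17a1 from skin. Col6a4, which was not tested, lay between 0.01 and 0.14 FPKM over the 12 libraries.

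Chains that are built into one protein were compared as ratios of FPKM. Type I collagen is made mainly from 2 alpha 1 chains and 1 alpha 2 chain. The Col1a1 to Col1a2 ratio was 6.03 ± 0.61 in vehicle, 6.41 ± 0.86 in paclitaxel and 6.07 ± 0.70 in oxaliplatin (SD, n = 4), and its absolute level carries the uncertainty of Col1a2. No difference between groups passed (exact two-sided permutation tests, adjusted over 6 ratio tests, p = 0.72 for paclitaxel and 0.971 for oxaliplatin against vehicle, and 0.72 between the drugs). The Col4a1 to Col4a2 ratio was 1.48 ± 0.09 in vehicle, 1.38 ± 0.04 in paclitaxel and 1.39 ± 0.05 in oxaliplatin. Its differences did not pass either (exact permutation, adjusted p = 0.514 for each drug against vehicle and 0.72 between the drugs). With 4 libraries against 4 the smallest unadjusted p is 0.0286, and a single ratio at that value is adjusted to 0.171 over 6 tests, so these tests could not have passed for 1 ratio alone.

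Across the groups, collagen transcripts were highest in oxaliplatin and lowest in paclitaxel. Summed over all 44 genes, FPKM was 899 ± 126 in vehicle, 732 ± 52.7 in paclitaxel and 1158 ± 76.7 in oxaliplatin (SD, n = 4). The oxaliplatin libraries, at 1052 to 1235, overlapped neither the vehicle libraries, at 726 to 1007, nor the paclitaxel libraries, at 672 to 790. These are totals of whole ganglia, in which fewer cells of a type and less RNA per cell cannot be told apart.

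**Figure D1:**
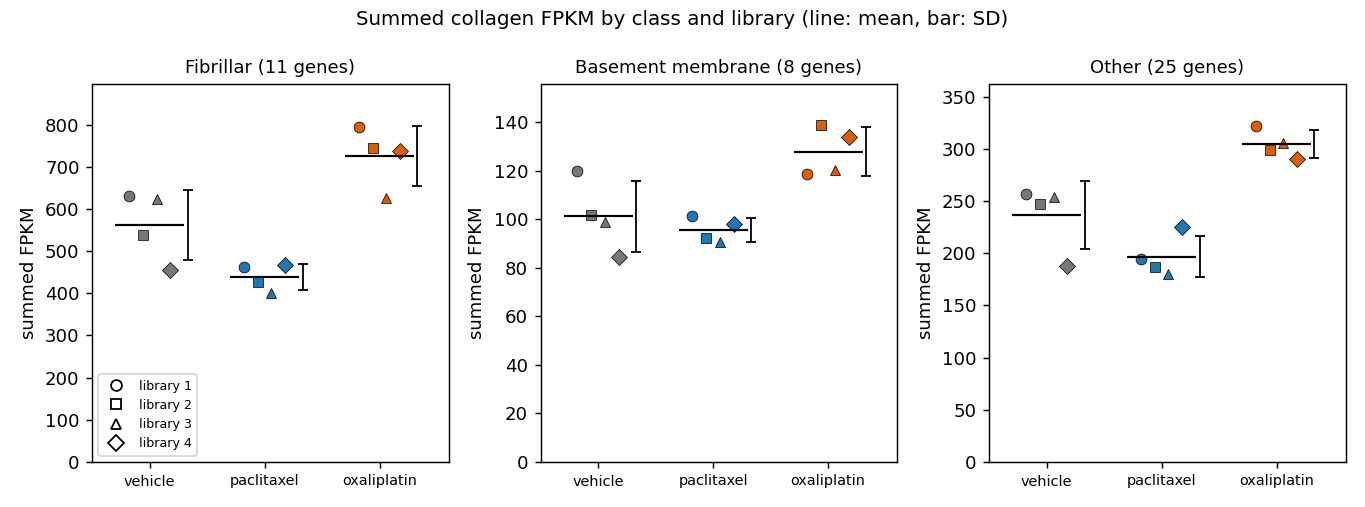
Summed FPKM of fibrillar (11 genes), basement membrane (8 genes) and other (25 genes) collagens in each of the 12 libraries, by group; symbols mark the library number, lines the group mean and bars the SD. In the fibrillar panel the paclitaxel libraries lie between 402 and 467, the vehicle libraries between 454 and 630 and the oxaliplatin libraries between 627 and 794.

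Fibrillar chains summed to 562 ± 82.9 FPKM in vehicle, 440 ± 31.0 in paclitaxel and 726 ± 70.4 in oxaliplatin. The paclitaxel libraries reached from 402 to 467, crossing only the lowest vehicle library at 454, and those of oxaliplatin, at 627 to 794, crossed only the highest vehicle library at 630.3. Basement membrane chains summed to 101 ± 14.6, 95.4 ± 5.00 and 128 ± 10.1 FPKM, and the other chains to 236 ± 32.8, 197 ± 20.0 and 304 ± 13.4. In the basement membrane class, oxaliplatin 1 at 118.5 lay under vehicle 1 at 119.9, while all oxaliplatin libraries lay above all paclitaxel libraries. In the other class the oxaliplatin libraries, at 291 to 322, lay above every other library. As a share of collagen FPKM, basement membrane chains held 12.4% to 13.4% in paclitaxel, against 10.1% to 11.9% in vehicle and 9.6% to 11.75% in oxaliplatin, a description that was not tested.

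Genes were tested with edgeR's quasi-likelihood test on rounded estimated counts over all 15809 tested genes, and a gene was called at a Benjamini-Hochberg adjusted p under 0.05. Between oxaliplatin and paclitaxel, 18 of 43 collagen genes were called, all higher in oxaliplatin, or 41.9% of the collagens, where 6.6% of all genes were called higher, 4.71% lower and 11.3% in either direction. All 43 had a positive fold change, Col10a1 only at 0.00, with a median of 0.50 on the log2 scale against 0.00 over all genes. In 21 collagens (48.8%) every oxaliplatin library lay above every paclitaxel library in TMM-scaled CPM, where 9.17% of all genes did so and 6.1% did the reverse. Over all genes, 1044 were called higher and 744 lower on counts but 1507 higher and 277 lower on log2(FPKM + 1), while no collagen was called lower on either.

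Against vehicle the calls were few. For oxaliplatin, 2 of 43 collagens were called higher, Col6a1 and Col6a2, and none lower, where 1.05% of all genes were called higher and 0.708% lower. There 35 collagens had positive and 8 negative fold changes, with a median of 0.30 against 0.01 over all genes, and in 12 (27.9%) the oxaliplatin libraries all lay above the vehicle libraries, where 5.54% of all genes did so and 5.76% did the reverse. For paclitaxel, 0 of 43 were called by edgeR, where 0.12% of all genes were called, 0.0822% higher and 0.038% lower. The unadjusted p was under 0.05 for 11 of them, the smallest adjusted p was 0.144, and DESeq2 called 3 and limma voom with sample quality weights 12, all lower. Those fits called 0.784% and 6.57% of all genes lower.

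In that comparison 33 collagens had negative and 10 positive fold changes, with a median of -0.26 against -0.01 over all genes. In 4 of them (9.3%) every paclitaxel library lay below every vehicle library, where 3.08% of all genes did so and 3.88% did the reverse. These were Col3a1, Col11a2, Col12a1 and Col14a1. Without paclitaxel 4, edgeR called 6 collagens lower than vehicle (Col3a1, Col5a1, Col5a2, Col12a1, Col14a1 and Col28a1), and in that fit 4.45% of all genes were called lower. The 3 comparisons share groups, so they are not separate evidence of one another.

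**Figure D2:**
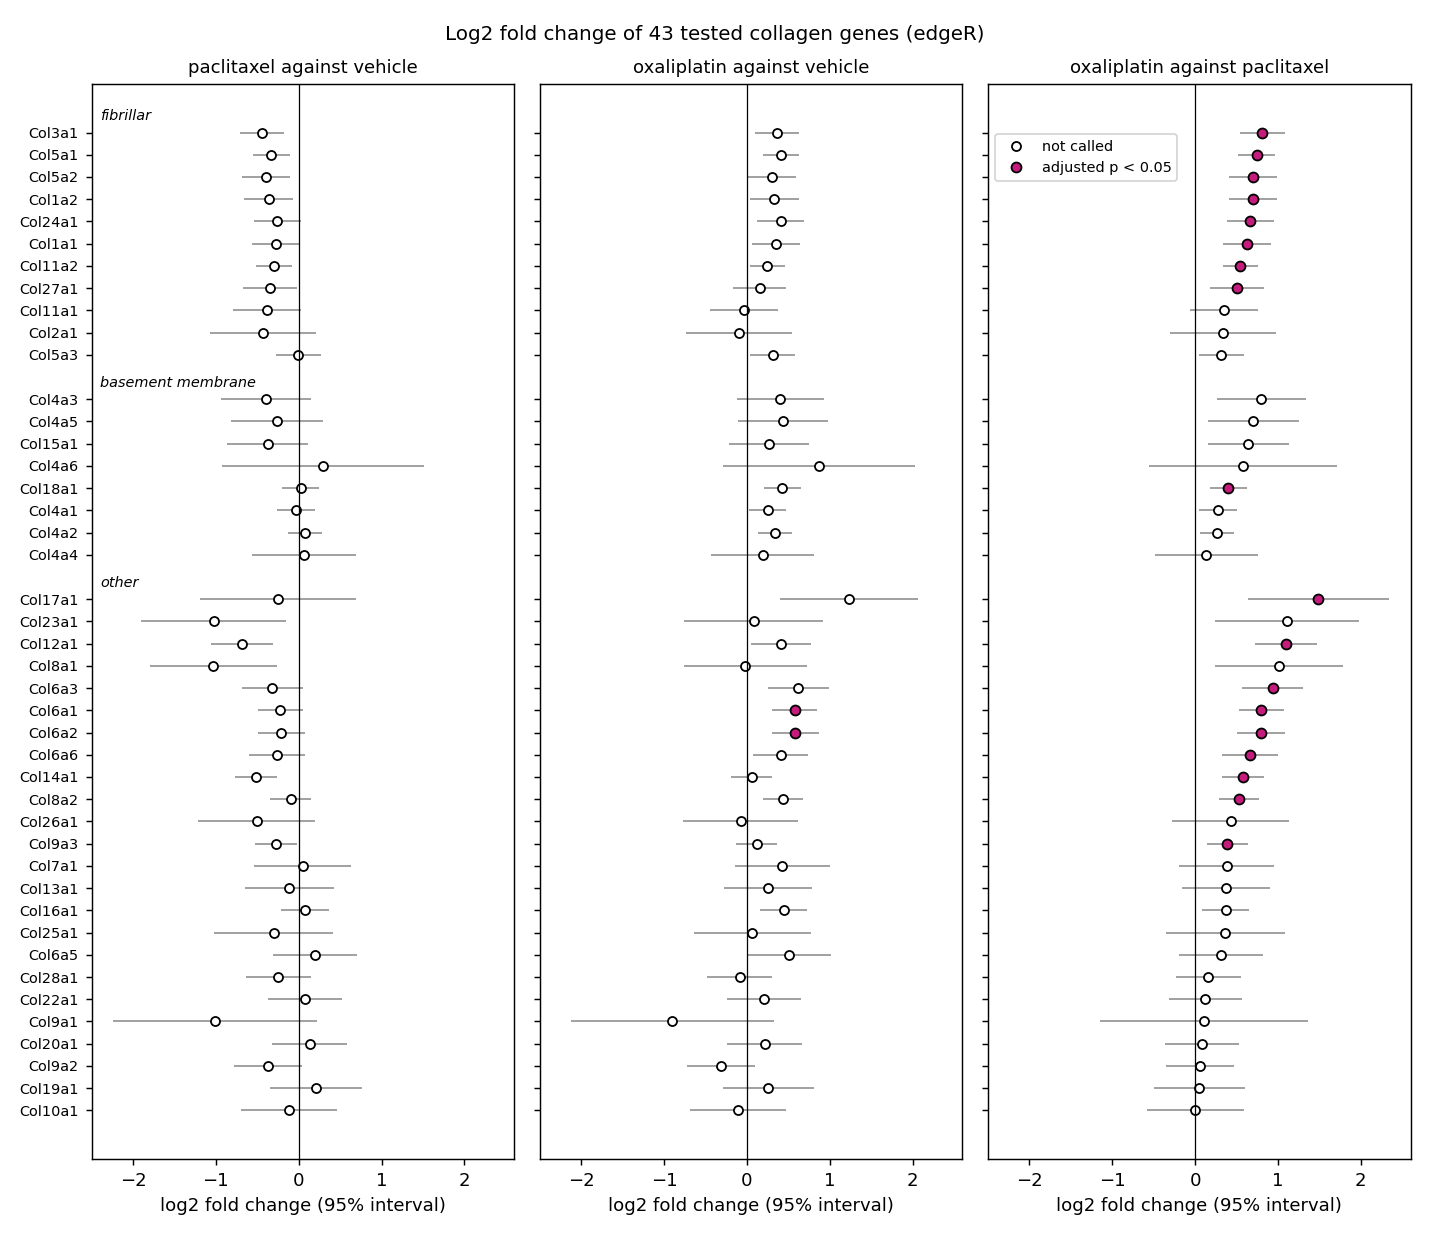
Log2 fold change (x axis) with its 95% interval for each of the 43 tested collagens (y axis, by class) in the 3 comparisons; filled points mark an edgeR adjusted p under 0.05. Filled points number 0 for paclitaxel against vehicle, 2 for oxaliplatin against vehicle and 18 between the drugs, where all 43 values are positive, Col10a1 only at 0.00.

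Among the fibrillar chains, 8 of 11 were called higher in oxaliplatin than in paclitaxel, and all 8 had libraries that did not overlap. Of all tested genes, 6.6% were called higher, and 9.17% had every oxaliplatin library above every paclitaxel library. The class median was 0.62 between the drugs, -0.35 for paclitaxel and 0.31 for oxaliplatin against vehicle, and all 11 had a negative fold change in paclitaxel. Col3a1 was listed at 229, 191, 246 and 175 FPKM in vehicle, 148, 149, 131 and 169 in paclitaxel, and 307, 299, 230.2 and 272 in oxaliplatin. Every paclitaxel library lay below every vehicle library, while oxaliplatin 3 lay inside the vehicle range. Between the drugs it rose by 0.81 ± 0.13 (log2 fold change ± SE, 1.76-fold, edgeR adjusted p = 0.0037), and against vehicle the changes were -0.45 ± 0.12 for paclitaxel (edgeR adjusted p = 0.203) and 0.37 ± 0.12 for oxaliplatin (0.149).

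Col1a1 stood at 184, 155, 191 and 129.7 FPKM in vehicle, 148, 128, 124 and 127 in paclitaxel and 234, 214, 172 and 237 in oxaliplatin. All oxaliplatin libraries exceeded all paclitaxel libraries, and both drug groups crossed the vehicle range. The difference between the drugs was 0.62 ± 0.14 (1.54-fold, edgeR adjusted p = 0.0145). Its partner Col1a2 stood at 32.7, 28.6, 28.4 and 20.4 FPKM in vehicle, 20.3, 19.3, 19.2 and 24.2 in paclitaxel, and 40.4, 38.1, 29.99 and 33.3 in oxaliplatin, with the same separation of the drugs and a difference of 0.70 ± 0.14 (edgeR adjusted p = 0.00968).

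Type V collagen controls how fibrils start and how thick they grow. Col5a1 had the smallest p of any collagen between the drugs. It was at 29.1, 23.7, 27.8 and 21.3 FPKM in vehicle, 19.1, 18.0, 18.6 and 22.8 in paclitaxel, and 34.6, 34.6, 33.7 and 35.6 in oxaliplatin. The oxaliplatin libraries were close together and above the other 8. Between the drugs it rose by 0.74 ± 0.10 (1.67-fold, edgeR adjusted p = 0.00224), and against vehicle the oxaliplatin change was 0.41 ± 0.10 (edgeR adjusted p = 0.0602).

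Col5a2, a neighbour of Col3a1 on the chromosome, stood at 26.0, 24.7, 27.1 and 18.4 FPKM in vehicle, 15.4, 16.8, 15.2 and 23.4 in paclitaxel and 28.1, 32.3, 29.8 and 31.2 in oxaliplatin. Paclitaxel 4 was far above the other paclitaxel libraries, and oxaliplatin overlapped neither group. It rose by 0.70 ± 0.13 between the drugs (edgeR adjusted p = 0.009).

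No call was made for the Schwann cell chain Col5a3. Its libraries held 102, 86.2, 82.5 and 67.1 FPKM in vehicle, 91.1, 77.9, 76.5 and 79.7 in paclitaxel and 125, 93.5, 104 and 105 in oxaliplatin. Paclitaxel lay inside the vehicle range, with a log2 fold change of -0.00 and a 95% interval from -0.27 to 0.27. Between the drugs it changed by 0.31 ± 0.13 (interval 0.04 to 0.58, edgeR adjusted p = 0.118), which did not pass, and the oxaliplatin libraries overlapped those of paclitaxel in TMM-scaled CPM though not in FPKM.

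**Figure D3:**
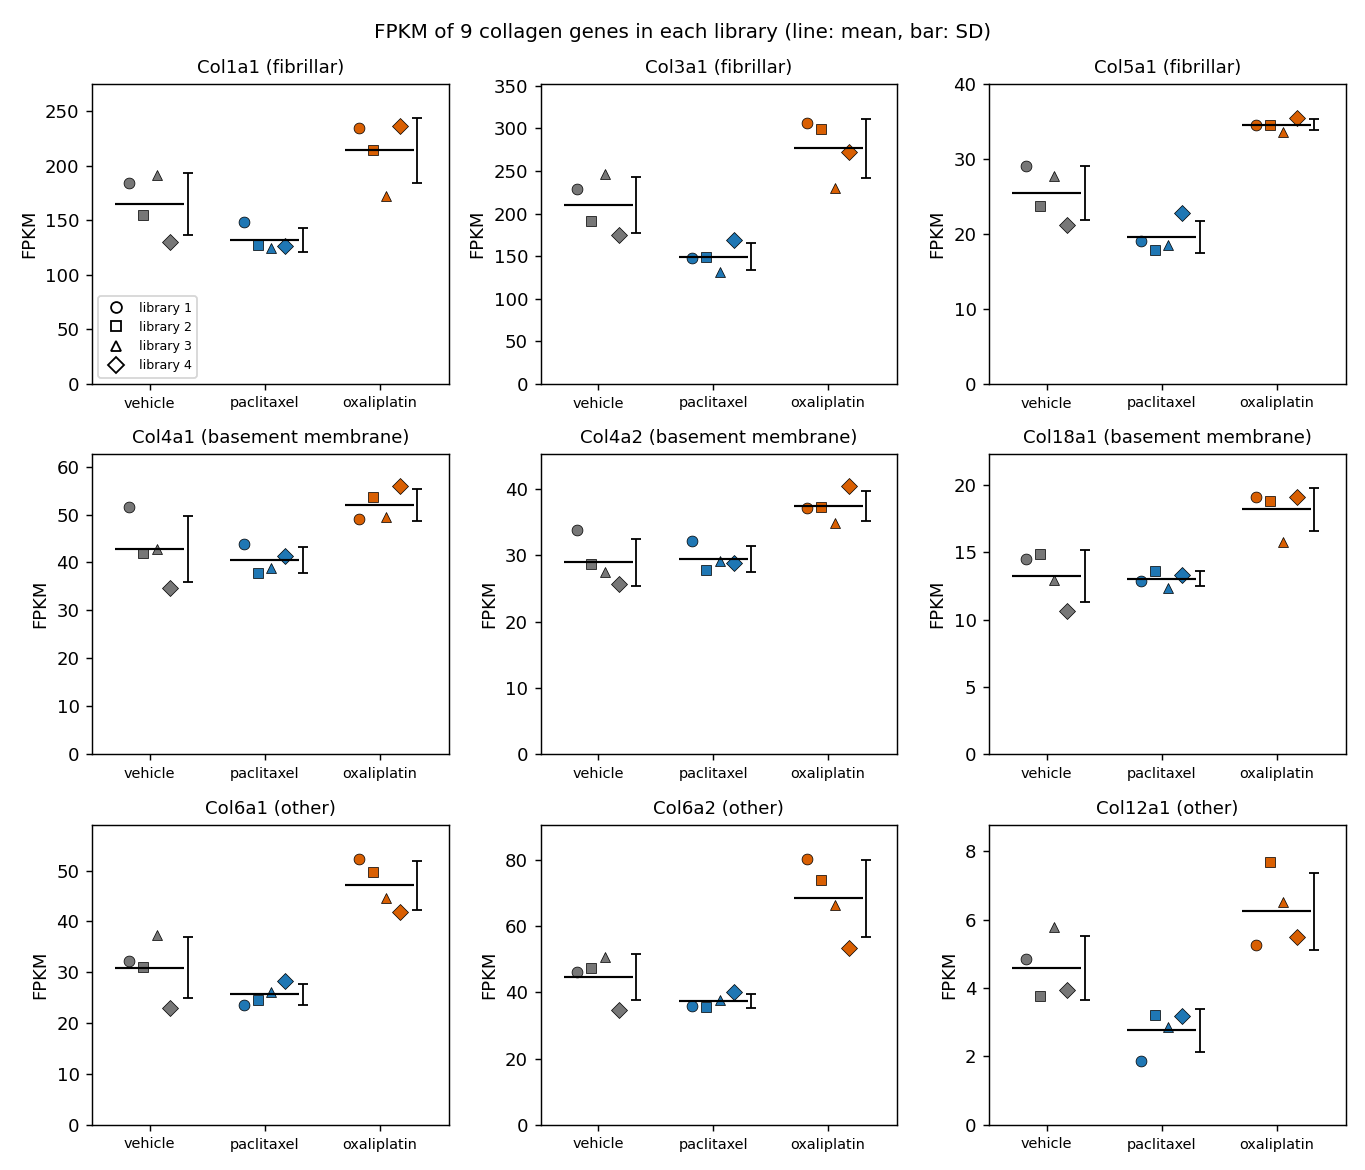
FPKM (y axis, from 0) of 9 collagens in each library of the 3 groups: 3 fibrillar, 3 basement membrane and 3 other; symbols mark the library number, lines the mean and bars the SD of 4 libraries. For Col5a1, Col4a2, Col18a1, Col6a1 and Col6a2 the oxaliplatin libraries lie above all others. For Col3a1 and Col12a1 the paclitaxel libraries lie below all others.

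Of the minor fibrillar chains, Col11a2 was at 3.79, 2.92, 3.78 and 2.84 FPKM in vehicle, 2.47, 2.76, 2.67 and 2.63 in paclitaxel and 3.94, 3.91, 3.94 and 4.39 in oxaliplatin. The 3 groups did not overlap, with paclitaxel lowest and oxaliplatin highest, and the difference between the drugs was 0.55 ± 0.10 (edgeR adjusted p = 0.00714). Its counts are uncertain. Col24a1 was at 4.05, 4.30, 3.38 and 3.17 FPKM in vehicle, 3.12, 2.87, 2.43 and 3.66 in paclitaxel and 4.50, 4.72, 5.38 and 5.64 in oxaliplatin, which overlapped neither other group (0.66 ± 0.13 between the drugs, edgeR adjusted p = 0.0103).

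Col27a1 stood at 4.87, 4.68, 3.98 and 3.39 FPKM in vehicle, 3.70, 2.99, 2.41 and 3.98 in paclitaxel and 5.07, 4.67, 4.49 and 5.16 in oxaliplatin. Its drug groups did not overlap, and it passed between them by little (0.50 ± 0.15, edgeR adjusted p = 0.0454). It was called in 7 of 20 alternative settings of the analysis. Among chains known from cartilage, Col2a1 changed by 0.34 between the drugs (interval -0.31 to 0.98) and Col11a1 by 0.35 (interval -0.06 to 0.76). Neither passed, but Col11a2 and Col9a3, also known from cartilage, were called higher in oxaliplatin. Col2a1 varied widely within groups, from 5.64 to 12.9 FPKM in vehicle and from 6.77 to 15.0 in oxaliplatin.

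Of the 8 basement membrane chains, 1 was called higher between the drugs, Col18a1, where 6.6% of all genes were called higher. The class median was 0.49, and 0.31 without oxaliplatin 2. Whether this class differs from the fibrillar class was not tested. Against vehicle the class median was 0.37 for oxaliplatin, with 8 of 8 positive, and 0.00 for paclitaxel, with 4 positive and 4 negative. Col4a1 and Col4a2 encode the chains found in nearly all basement membranes. Col4a1 was at 51.5, 42.0, 42.9 and 34.7 FPKM in vehicle, 43.9, 37.8, 38.9 and 41.3 in paclitaxel and 49.0, 53.6, 49.4 and 55.8 in oxaliplatin. Paclitaxel fell inside the vehicle range (fold change -0.03, interval -0.26 to 0.20), and the oxaliplatin libraries lay above those of paclitaxel without passing the test (0.28 ± 0.11, edgeR adjusted p = 0.1).

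Its partner Col4a2 followed the same pattern, at 33.8, 28.7, 27.5 and 25.6 FPKM in vehicle, 32.2, 27.7, 29.1 and 28.8 in paclitaxel and 37.0, 37.2, 34.9 and 40.3 in oxaliplatin. On this scale oxaliplatin lay above both other groups, but in TMM-scaled CPM it overlapped paclitaxel. Its changes were 0.26 ± 0.09 between the drugs (edgeR adjusted p = 0.0831), 0.34 ± 0.09 for oxaliplatin (0.0872) and 0.08 for paclitaxel against vehicle (interval -0.13 to 0.28).

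Col18a1 and Col15a1 encode basement membrane chains that carry sugar side chains, and the end of the Col18a1 protein is released as endostatin. Col18a1 was at 14.5, 14.8, 13.0 and 10.7 FPKM in vehicle, 12.8, 13.6, 12.4 and 13.3 in paclitaxel and 19.1, 18.8, 15.8 and 19.1 in oxaliplatin. Oxaliplatin overlapped neither group, and its difference from paclitaxel was 0.40 ± 0.10 (1.32-fold, edgeR adjusted p = 0.0282). The same gene differed from vehicle by 0.42 ± 0.10 in oxaliplatin (edgeR adjusted p = 0.0579) and 0.02 ± 0.10 in paclitaxel.

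The libraries of Col15a1 read 17.3, 14.0, 11.9 and 11.1 FPKM in vehicle, 10.1, 10.9, 8.27 and 11.2 in paclitaxel and 10.4, 25.4, 16.3 and 14.6 in oxaliplatin. Its oxaliplatin libraries reached from inside the paclitaxel range to above all others, and it did not pass (0.64 ± 0.22 between the drugs, edgeR adjusted p = 0.0822). The rarer type IV chain Col4a3 read 0.53, 0.24, 0.65 and 0.40 FPKM in vehicle, 0.39, 0.26, 0.29 and 0.40 in paclitaxel and 0.57, 0.60, 0.63 and 0.75 in oxaliplatin, where all oxaliplatin libraries exceeded all paclitaxel libraries (0.80 ± 0.25, edgeR adjusted p = 0.0547). Its counts are uncertain. Col4a4, Col4a5 and Col4a6 had fold changes of 0.13, 0.70 and 0.58 between the drugs, and none passed.

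Type VI chains held the 2 collagens that edgeR called against vehicle. Col6a1 and Col6a2, whose genes lie side by side, combine with Col6a3 into one filament unit. Col6a1 was at 32.2, 31.1, 37.4 and 22.9 FPKM in vehicle, 23.6, 24.6, 26.0 and 28.3 in paclitaxel and 52.2, 49.8, 44.6 and 41.8 in oxaliplatin. All oxaliplatin libraries lay above the other 8. It rose by 0.58 ± 0.13 against vehicle (1.49-fold, edgeR adjusted p = 0.0363) and by 0.80 ± 0.13 against paclitaxel (1.74-fold, edgeR adjusted p = 0.00424).

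Col6a2 was at 46.1, 47.3, 50.7 and 34.6 FPKM in vehicle, 36.0, 35.6, 37.7 and 40.2 in paclitaxel and 80.0, 73.8, 66.4 and 53.2 in oxaliplatin, again with oxaliplatin above the rest. It rose by 0.58 ± 0.13 against vehicle (1.5-fold, edgeR adjusted p = 0.0421) and by 0.79 ± 0.13 against paclitaxel (1.73-fold, edgeR adjusted p = 0.00537). Both calls against vehicle ended when any of vehicle 1, vehicle 2, vehicle 4, paclitaxel 2, paclitaxel 3, oxaliplatin 1, oxaliplatin 2 or oxaliplatin 3 was left out, and when the fit held only the 2 groups compared. Without paclitaxel 1 only Col6a1 was called.

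Col6a3 stood at 7.66, 6.33, 9.26 and 5.20 FPKM in vehicle, 5.84, 4.35, 4.89 and 6.92 in paclitaxel and 11.2, 10.8, 9.44 and 12.9 in oxaliplatin. The oxaliplatin libraries overlapped neither group, and the rise against paclitaxel was 0.94 ± 0.17 (1.92-fold, edgeR adjusted p = 0.00717). Against vehicle its change of 0.62 ± 0.17 was as large as those of its partners but did not pass (edgeR adjusted p = 0.0839). Col6a6, which can take the place of Col6a3, read 3.02, 3.60, 3.55 and 2.06 FPKM in vehicle, 2.37, 2.39, 2.22 and 2.92 in paclitaxel and 3.81, 4.85, 3.73 and 4.18 in oxaliplatin, which lay above the other groups in FPKM but overlapped vehicle in TMM-scaled CPM. It rose by 0.67 ± 0.16 between the drugs (edgeR adjusted p = 0.0199), was called in 16 of 20 settings and is uncertain. Col6a5 changed by 0.31 (interval -0.19 to 0.81) between the drugs, with oxaliplatin 4 at 15.7 FPKM and the other oxaliplatin libraries between 7.53 and 8.69.

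Fibril surface chains of the FACIT group were called higher in 3 of 9 cases between the drugs, where 6.6% of all genes were called higher. Col12a1 had the largest fold change among the called collagens other than Col17a1. It was at 4.85, 3.77, 5.78 and 3.94 FPKM in vehicle, 1.86, 3.20, 2.85 and 3.18 in paclitaxel and 5.26, 7.69, 6.53 and 5.48 in oxaliplatin. Paclitaxel lay below the other 8 libraries, and oxaliplatin overlapped the vehicle range. It rose by 1.09 ± 0.17 between the drugs (2.13-fold, edgeR adjusted p = 0.00448), and against vehicle the paclitaxel change was -0.68 ± 0.17 (edgeR adjusted p = 0.19).

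Col14a1, which binds fibrils through decorin, was at 19.9, 18.8, 17.1 and 14.7 FPKM in vehicle, 12.3, 11.1, 10.02 and 14.2 in paclitaxel and 21.2, 18.5, 17.2 and 18.0 in oxaliplatin. Oxaliplatin lay within or just above the vehicle range, and paclitaxel lay below both. The gene had the smallest p of any collagen for paclitaxel against vehicle (-0.52 ± 0.12, edgeR adjusted p = 0.144), changed by 0.06 in oxaliplatin against vehicle (interval -0.19 to 0.31) and rose by 0.58 ± 0.12 between the drugs (edgeR adjusted p = 0.0114).

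Col16a1 read 35.3, 30.9, 31.9 and 23.3 FPKM in vehicle, 35.6, 31.3, 26.5 and 30.5 in paclitaxel and 48.6, 36.9, 39.9 and 43.3 in oxaliplatin. Paclitaxel lay across the vehicle range and oxaliplatin above both in FPKM, while in TMM-scaled CPM the drug groups overlapped, and its changes did not pass (0.44 ± 0.13 for oxaliplatin against vehicle, edgeR adjusted p = 0.11, and 0.37 ± 0.13 between the drugs, 0.0872). Of the type IX chains, Col9a3 read 30.6, 33.0, 25.1 and 22.4 FPKM in vehicle, 22.6, 21.5, 19.3 and 25.8 in paclitaxel and 29.4, 30.6, 33.5 and 29.8 in oxaliplatin. Its drug groups did not overlap (0.39 ± 0.12, edgeR adjusted p = 0.0473), and it was called in 8 of 20 settings. Its partner chains did not pass: Col9a1 changed by 0.11 (interval -1.15 to 1.36) and Col9a2 by 0.06 (interval -0.35 to 0.47) between the drugs.

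**Figure D4:**
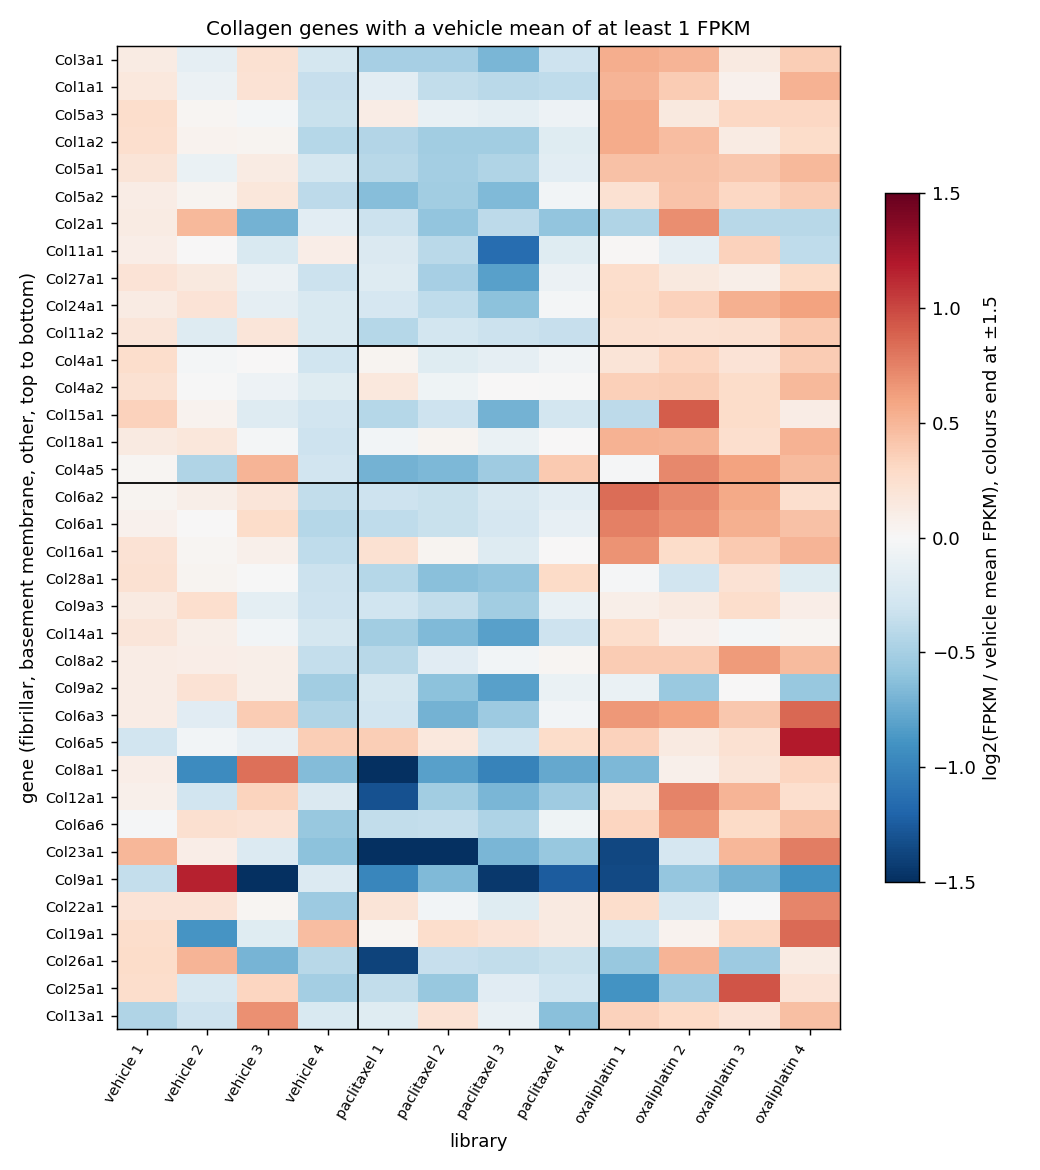
Log2 ratio of FPKM to the vehicle mean (colour, ends at 1.5 in either direction) for the 36 collagens with a vehicle mean of at least 1 FPKM (rows, by class) in the 12 libraries (columns). Oxaliplatin columns are mostly red and paclitaxel columns mostly blue, vehicle 4 is paler blue in most rows, and the rare chains at the foot of the plot are mixed.

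Type VIII collagen forms short-chain networks under endothelia. Col8a2 was at 12.1, 11.98, 11.9 and 8.70 FPKM in vehicle, 8.35, 9.89, 10.8 and 11.4 in paclitaxel and 14.5, 14.5, 17.3 and 15.5 in oxaliplatin. Oxaliplatin overlapped neither group, with a rise of 0.53 ± 0.11 against paclitaxel (1.45-fold, edgeR adjusted p = 0.0134) and a change of 0.44 ± 0.11 against vehicle (edgeR adjusted p = 0.0715). Its partner Col8a1 changed by 1.01 ± 0.35 between the drugs without passing (edgeR adjusted p = 0.083), and its vehicle libraries reached from 2.54 to 8.63 FPKM.

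The transmembrane chain Col17a1, a part of the junctions that hold skin cells to their basement membrane, was called between the drugs from very few reads. Its estimated counts were 7, 6, 9 and 5 in vehicle, 6, 8, 7 and 1 in paclitaxel and 18, 18, 15 and 14 in oxaliplatin. The drugs differed by 1.49 ± 0.40 (2.81-fold, edgeR adjusted p = 0.0311), and it was called in 12 of 20 settings. On log2(FPKM + 1), which shrinks changes of low genes, the difference was 0.15. The other transmembrane chains Col13a1, Col23a1 and Col25a1 changed by 0.37, 1.11 and 0.37 and none passed. The Schwann cell chain Col28a1 changed by 0.16 between the drugs (interval -0.24 to 0.55), where paclitaxel 4 at 34.7 FPKM was the highest of all 12 libraries and the other paclitaxel libraries lay between 18.3 and 21.1.

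The calls between the drugs varied with the setting for some genes and not for others. In all 20 alternative settings, 13 collagens were called: Col1a1, Col1a2, Col3a1, Col5a1, Col5a2, Col11a2, Col24a1, Col6a1, Col6a2, Col6a3, Col12a1, Col14a1 and Col8a2. Leaving out 1 library gave between 13 and 20 called collagens, and no setting called a collagen lower. In those fits between 393 of 15924 genes (without oxaliplatin 3) and 1786 of 15950 (without paclitaxel 4) were called higher. Without paclitaxel 1, paclitaxel 2, paclitaxel 3 or oxaliplatin 2, 13 collagens were called, and Col6a6, Col9a3, Col17a1, Col18a1 and Col27a1 were no longer called. Without oxaliplatin 1 all of these but Col6a6 were lost, without oxaliplatin 3 Col9a3, Col17a1 and Col27a1, without vehicle 1, vehicle 3 or oxaliplatin 4 Col9a3 and Col27a1, and without vehicle 2 Col27a1 alone. Over the 20 settings the largest adjusted p was 0.0664 for Col6a6, 0.142 for Col9a3, 0.0743 for Col17a1, 0.0847 for Col18a1 and 0.129 for Col27a1 (the edgeR, DESeq2 or limma fit of that setting).

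Genes that make, fold and bind collagen were read from lists of known members, chosen like the collagens with earlier results of these data known. Prolyl and lysyl hydroxylases and the glycosyltransferases modify the chains inside the cell. Between the drugs 3 of 15 were called higher and 1 lower, with a median of 0.13. Over all genes, 6.6% were called higher and 4.71% lower there, with a median of 0.00. P3h1, a prolyl 3-hydroxylase, rose from 6.80 ± 0.27 FPKM in paclitaxel to 9.95 ± 0.70 in oxaliplatin (SD, n = 4; edgeR adjusted p = 0.017), and P3h3 and P4ha1 rose by 0.46 and 0.30. Colgalt2, which adds galactose to collagen, fell by 0.35 ± 0.10 (edgeR adjusted p = 0.0373).

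Among genes of folding and secretion, 4 of 13 were called higher between the drugs and 1 lower. The shares over all genes were 6.6% and 4.71%. Serpinh1, the collagen chaperone Hsp47, went from 74.2 ± 18.3 FPKM in paclitaxel to 111 ± 16.4 in oxaliplatin, against 98.7 ± 7.38 in vehicle (edgeR adjusted p = 0.0424 between the drugs). Fkbp10, a prolyl isomerase of the same step, rose by 0.54 ± 0.13 (edgeR adjusted p = 0.0195). The coat proteins of secretory vesicles moved both ways, Sec24d up by 0.41 and Sec23a lower at -0.25.

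Outside the cell, procollagen ends are cut off and fibrils are crosslinked. Here 7 of 12 genes were called higher in oxaliplatin than in paclitaxel and none lower, with a median of 0.64. Of all genes, 6.6% were called higher and 4.71% lower. Bmp1, which removes the C-terminal propeptide, was at 23.1 ± 4.01 FPKM in vehicle, 15.8 ± 2.49 in paclitaxel and 29.8 ± 4.64 in oxaliplatin (0.81 ± 0.14 between the drugs, edgeR adjusted p = 0.00628). The lysyl oxidase relatives Loxl1 and Loxl2 rose by 1.06 and 0.74, and Adamts2, which removes the N-terminal propeptide, by 0.73. The counts of Loxl1 and Adamts2 are uncertain.

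Between the drugs, where 6.6% of all genes were called higher, 3 of 11 tested collagen receptors were. They were Ddr2, a receptor tyrosine kinase for fibrillar collagen (1.07 ± 0.19, edgeR adjusted p = 0.00688), the uptake receptor Mrc2 (0.73 ± 0.18, edgeR adjusted p = 0.0221) and the integrin chain Itga2 (0.84 ± 0.22, edgeR adjusted p = 0.0276). The counts of Ddr2 and Itga2 are uncertain. Proteoglycans and glycoproteins that bind fibrils gave 8 of 15 called higher and none lower, with a median of 0.93. Fibronectin (Fn1) was at 18.8 ± 4.60 FPKM in vehicle, 15.6 ± 2.18 in paclitaxel and 31.1 ± 2.91 in oxaliplatin, and was called against vehicle (0.70 ± 0.15, edgeR adjusted p = 0.0336) and against paclitaxel (0.91 ± 0.15, edgeR adjusted p = 0.00448). Prelp was likewise called against both, by 0.72 and 0.80.

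The partners of type IV collagen in basement membranes gave 7 of 15 called higher between the drugs and none lower, with a median of 0.43. Over all genes the shares were 6.6% higher and 4.71% lower. Perlecan (Hspg2) had 28.7 ± 2.37 FPKM in paclitaxel and 44.7 ± 0.98 in oxaliplatin (0.56 ± 0.12, edgeR adjusted p = 0.0151), and the laminin chain Lamb2 rose by 0.58. The laminin chain Lama5 was also called against vehicle (0.62 ± 0.13, edgeR adjusted p = 0.035). In the list of TGF-beta signalling to matrix, a pathway known to induce collagen genes, 4 of 19 were called higher between the drugs and none lower. Ltbp4, which binds latent TGF-beta, was called against vehicle (0.68 ± 0.13, edgeR adjusted p = 0.0249) and paclitaxel (0.86 ± 0.13, edgeR adjusted p = 0.0037), and Tgfb1 rose by 0.61 between the drugs. For paclitaxel against vehicle edgeR called none of the members of these 7 lists, with medians from -0.58 to -0.01. It called only 0.12% of all genes there, whose median was -0.01.

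**Figure D5:**
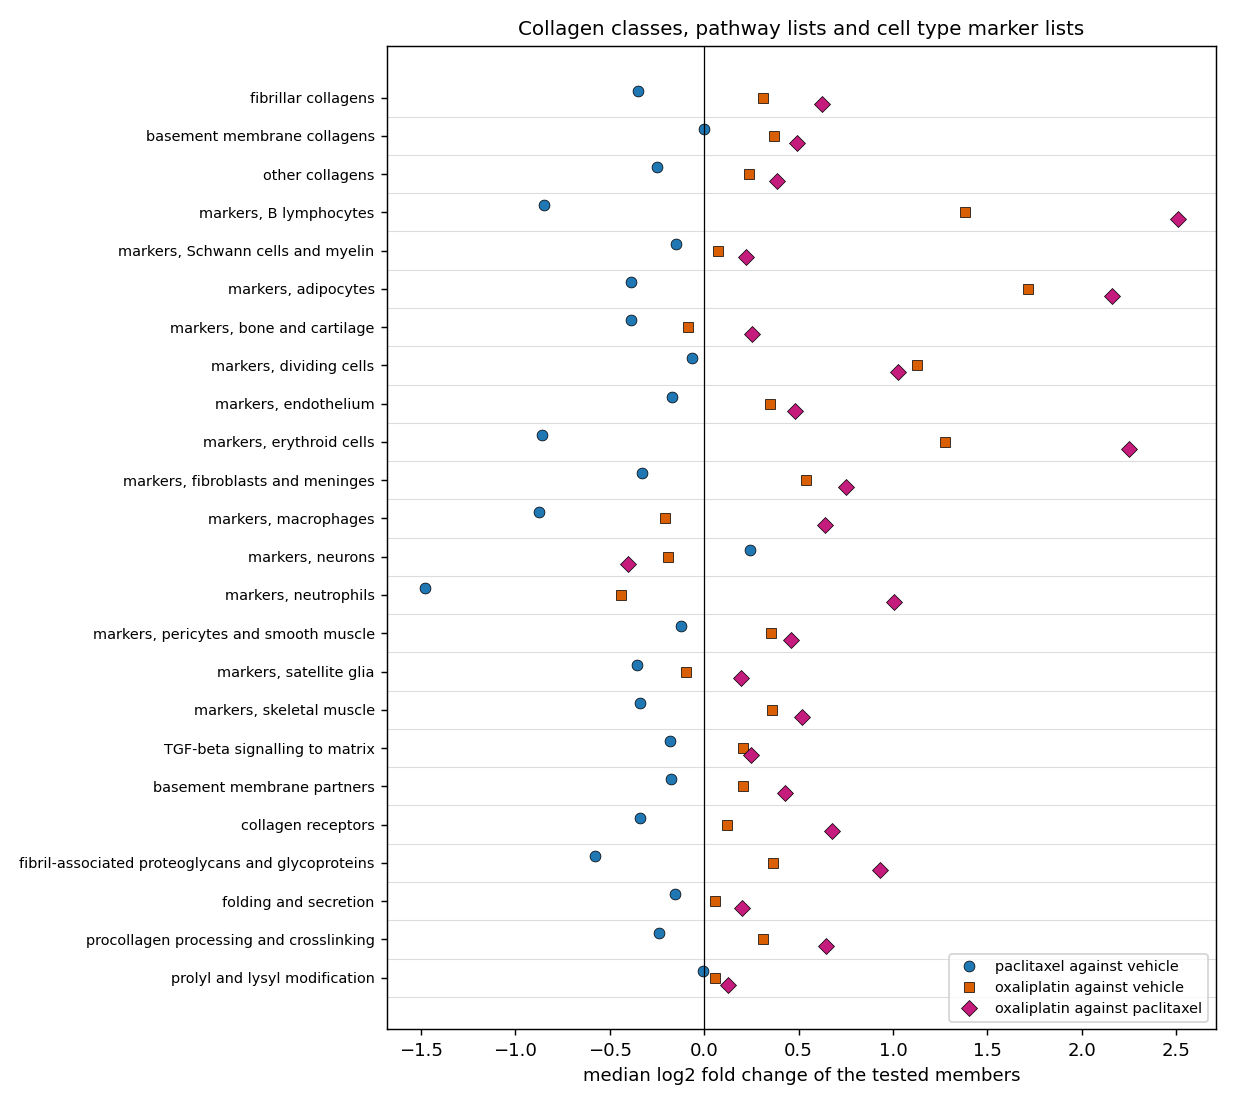
Median log2 fold change (x axis) of the tested members of the 3 collagen classes, 14 cell type marker lists and 7 pathway lists (rows) in the 3 comparisons (symbols). Between the drugs all 3 collagen classes, all 7 pathway lists and every marker list but the neuron list lie right of 0. Fibroblast markers lie at 0.75, B lymphocyte markers at 2.51 and the neuron list at -0.40.

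Markers of several cell types moved with the collagens, and their part in these results was not tested. Fibroblast and meningeal markers (14 of 14 found) summed to 2570 to 3725 CPM in vehicle, 1793 to 2750 in paclitaxel and 2955 to 4283 in oxaliplatin, and 5 of 14 were called higher between the drugs, with a median of 0.75. This list shares Dcn, Lum and Dpt with the list of fibril-binding proteins. Over all genes, 6.6% were called higher between the drugs. Endothelial markers (11 of 11) summed to 196 to 282, 188 to 220 and 253 to 301 CPM, with 5 called higher, and pericyte and smooth muscle markers (11 of 11) to 172 to 284, 181 to 236 and 259 to 307, with 3 called higher.

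Schwann cell and myelin markers (13 of 13) gave no call between the drugs by edgeR, with a median of 0.22, and satellite glia markers (8 of 8) gave 1, Gja1, called higher. The share called over all genes was 6.6% higher and 4.71% lower. Neuron markers (12 of 12) went the other way. They summed to 15208 to 17187 CPM in vehicle, 16229 to 22036 in paclitaxel and 11839 to 14699 in oxaliplatin, and 6 were called lower in oxaliplatin than in paclitaxel, Tubb3 by -0.58. The counts of Tubb3 are uncertain.

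Marker lists of blood and marrow cells were read in the same way. Erythroid markers (10 of 11 found) summed to 899 to 1837 CPM in vehicle, 295 to 1123 in paclitaxel and 1766 to 6168 in oxaliplatin, with 8 of 10 called higher between the drugs. B lymphocyte markers gave 7 of 9 called higher and neutrophil markers 0 of 9, with medians of 2.51 and 1.00. The share of all genes called higher between the drugs was 6.6%. The summed B lymphocyte markers stood at 141, 76.6, 146 and 99.6 CPM in the 4 oxaliplatin libraries, against 80.7 to 87.7 in vehicle and 67.6 to 87.9 in paclitaxel. In this sum oxaliplatin 2 lay below every vehicle library. As a mean of log2 CPM over the 9 tested markers, set to 0 at the vehicle mean, it was -0.08, inside the vehicle range of -0.16 to 0.13. Macrophage markers summed to 422 to 720 CPM in vehicle, 184 to 376 in paclitaxel and 449 to 552 in oxaliplatin. Of 12, 2 were called lower in paclitaxel than in vehicle (Adgre1 and Spi1) and 5 higher in oxaliplatin than in paclitaxel. The matching shares of all genes were 0.038% and 6.6%.

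Bone and cartilage markers (18 of 18 found, 14 tested) summed to 709.6 to 993, 670.3 to 832 and 563 to 948 CPM, so the groups overlapped throughout. Between the drugs 2 were called higher, Acp5 and Ctsk, while 9 of the 14 had positive and 5 negative fold changes. In oxaliplatin against vehicle 6 were positive and 8 negative. Adipocyte markers gave 6 of 8 called higher between the drugs and 3 of 8 in oxaliplatin against vehicle. Dividing-cell markers gave 9 and 7 of 11, and skeletal muscle markers 2 and 0 of 6. Of all genes, 6.6% were called higher between the drugs and 1.05% in oxaliplatin against vehicle. Apart from the erythroid marker Hba-a2, which was not analysed here, no listed marker was at 0 in all libraries.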

How the data were processed

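Per the labels' protocols, RNA was extracted with Trizol and libraries were made with a BGISEQ-500 kit; whether strand was kept is not given in the sources used here. Per the file headers, each deposited table holds an expected count (an estimated count, which need not be whole because shared reads are divided) and an FPKM value per gene. CASAVA 1.4 and Bowtie2 were used, per the submitters' processing notes; the counting tool and genome build are not given in the sources used here. Library totals lay between 17008728 and 17615736, so depth was near equal. Precision is limited by the 4 libraries of a group and, for rare chains such as Col17a1, also by few counts.

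Expected counts were rounded and fitted in R 4.3.3 with edgeR 4.0.16 (default filter, TMM, robust quasi-likelihood fit of 3 group means over 12 libraries, 9 residual degrees of freedom), two-sided, adjusted over 15809 genes. FPKM served for levels and sums. Ratios were tested by exact permutation over 70 divisions. Groups came from the sample titles, whose replicate numbers were not used as pairs. No libraries of a group agreed within sampling noise.

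The members and lists were chosen with earlier results of these data known. Values per library are given for collagens called in any comparison, the 3 highest of each class in vehicle and the 2 with the smallest p of each class; other genes are named by smallest p within a list, up to 4. Alternatives were RLE size factors, DESeq2 1.42.0, limma 3.58.1 (voom with quality weights, and log2(FPKM + 1) or log2(FPKM + 0.1)), no filter, 2 groups alone, a replicate block and leaving out each library, 20 settings beside the main one.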

Additional observations from a re-analysis of the deposited data

Results flagged for a closer look

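In groups of 4 libraries, a library was picked out when its gap to the nearest other exceeded Dixon's 95% critical share of the group's range, which chance does in about 1 group in 20, and 6 of 102 groups checked were picked out. Col1a1 and Col5a3 both had paclitaxel 1 far above the other paclitaxel libraries, at 932.7 CPM against 750 to 772 for Col1a1 and at 593.6 CPM against 482 to 487 for Col5a3. Col18a1 had oxaliplatin 3 at 76.7 CPM, below the other oxaliplatin libraries at 93.0 to 95.9. Vehicle 4 was far below its group for Col8a2, at 37.19 CPM against 50.8 to 52.0, and for the summed FPKM of the collagens outside the fibrillar and basement membrane classes, at 187.6 against 247 to 257. Oxaliplatin 1 had the lowest share of basement membrane chains in collagen FPKM, 9.6% against 11.4% to 11.75%.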

How the results depend on the processing

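The count of collagens called between the drugs stayed within 1.5 times its value of 18 in all 20 alternatives, from 16 to 25 in other fits and from 13 to 20 when 1 library was left out. Voom with quality weights, which gave 25, called 2459 of 15809 genes higher. The replicate block, which gave 16, called 677 of 15809 higher. Without paclitaxel 4, which gave 20, 1786 of 15950 genes were called higher, and without paclitaxel 3, which gave 13, 427 of 15958. For oxaliplatin against vehicle, where 2 were called, DESeq2 called 8, limma-trend 5 on log2(FPKM + 1) and 4 on log2(FPKM + 0.1), and the fit of the 2 groups alone 0, with 0 to 4 when 1 library was left out. Of 15809 genes, DESeq2 called 431 higher and limma-trend 256 on log2(FPKM + 1) and 194 on log2(FPKM + 0.1). The fit of the 2 groups alone called 102 of 15615 genes higher. Without paclitaxel 4, which gave 4 collagens, 198 of 15950 genes were called higher. For paclitaxel against vehicle, where 0 were called, DESeq2 called 3 and voom with quality weights 12, with 0 to 6 when 1 library was left out. DESeq2 called 0.784% of all genes lower there and voom 6.57%. Without paclitaxel 4, which gave 6 collagens, 4.45% of all genes were called lower. The cause of these varying counts was not tested.

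Between the drugs, on log2(FPKM + 1), the class medians were 0.34 for basement membrane and 0.29 for other collagens, as the pseudocount shrinks changes of low genes, and leaving out 1 library gave 0.31 to 0.58 and 0.37 to 0.47. For oxaliplatin against vehicle the other class ranged from 0.070 (without oxaliplatin 4) to 0.33.

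Some fold changes turned sign, all of them near 0 but that of Col15a1. Against vehicle in paclitaxel, Col5a3 gave 0.0059 with RLE factors and with DESeq2 and 0.00237 with the replicate block, and without vehicle 1, vehicle 2, paclitaxel 2, paclitaxel 3 or paclitaxel 4 it gave 0.093, 0.01, 0.02, 0.02 and 0.02, with -0.098 as the lowest value when 1 library was left out. Col16a1 gave -0.0053 with voom weights, -0.033 without vehicle 4 and -0.02 without paclitaxel 1, and at most 0.15. Col4a1 gave 0.067 without vehicle 1 and 0.00574 without paclitaxel 2, and at the lowest -0.12. Col15a1 in oxaliplatin against vehicle, at 0.27 in the main fit, gave -0.013 without oxaliplatin 2, its highest library, and at most 0.43. The log2 difference of the Col1a1 to Col1a2 ratio between oxaliplatin and vehicle ranged from -0.07 (without oxaliplatin 4) to 0.063, at -0.02 and -0.04 without vehicle 1 and vehicle 2, and that of Col4a1 to Col4a2 between the drugs from -0.0012 (without oxaliplatin 2) to 0.040.

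The replicate numbers do not pair the libraries: correlations of same-numbered libraries lay between -0.33 and 0.25, and 1 of 12 libraries correlated best with its own number. With the number as a block, 0 collagens were called for paclitaxel, 0 for oxaliplatin against vehicle and 16 between the drugs. Over all genes, calls for paclitaxel against vehicle went from 19 to 245 with DESeq2, 2271 with voom weights and 1631 without paclitaxel 4. For oxaliplatin against vehicle they went from 278 to 873 with DESeq2, 631 with voom weights, 161 with the 2 groups alone, 72 with the block and 49 to 357 when 1 library was left out, and between the drugs from 1788 to 2779, 4796, 1016, 986 and 571 to 3463 in the same order. Depth was near equal over libraries.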
